A study of Ambystoma mexicanum with 6 samples.

Results

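Hemoglobin transcripts were followed in regenerating limbs of the axolotl, Ambystoma mexicanum, that had been treated with iMDK, a small molecule inhibitor of the growth factor midkine, or with its solvent DMSO. The members are all transcripts of 3 assembled genes out of 1388798 in the deposited matrix: c1020875_g2, named HBB1 after its best blastx hit to a hemoglobin beta chain of the newt Triturus cristatus (HBB1_TRICR), c1069424_g1, named HBB2 after HBB2_TRICR, and c1092570_g1, named HBA after a hemoglobin alpha chain of the newt Taricha granulosa (HBA_TARGR). Together they hold 5 transcripts of 1554055. They were chosen by their levels in these same libraries, in which hemoglobin stood higher in iMDK-treated limbs, so the difference between the treatments is a description of them, and the calls that the fit over all transcripts made for them are given as counts only, not as evidence of a difference.

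The 3 DMSO limbs and the 3 iMDK limbs were collected at 11 days post-amputation (dpa). According to the labels the treatment began at amputation and lasted until collection. The methods of the study describe juvenile white animals, amputation through the forearm, immersion of the whole animal in the drug solution, and 1 limb per animal as a replicate. No genetic change was involved, and no limb without solvent was measured here. Values are in TPM, a read level per transcript length set to a fixed library total, multiplied by the authors by a scaling factor per library (TMM).

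Hemoglobin carries oxygen in red blood cells, and each molecule combines alpha chains with beta chains around heme, an iron-containing ring. Red cells of amphibians keep their nucleus and can hold globin mRNA while they circulate, so a whole-limb RNA sample includes blood in the vessels as well as blood released at the wound. In such a bulk sample, more red cells and more globin RNA per red cell cannot be told apart.

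Library totals ranged from 910461 scaled TPM in DMSO 2 to 1103877 in iMDK 1, and 126965 to 198094 transcripts were above 0 in a library. TPM keeps no read totals, so the depth behind a value is unknown and no counting interval is given. Limb tissue was well represented. The summed level of keratin genes was 8983 to 14601 TPM over the 6 libraries, and that of the connective tissue genes CO1A1, CO1A2, SPRC and TENA was 756 to 1859 TPM.

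The first question was how the hemoglobin chains stood in each limb. The beta chain HBB1 was at 1.56, 1.5 and 2.02 TPM in DMSO 1, 2 and 3, and at 15.2, 18.0 and 28.9 TPM in iMDK 1, 2 and 3. All 3 iMDK limbs lay above all 3 DMSO limbs, and the lowest iMDK value was 7.54 times the highest DMSO value. The means were 1.69 ± 0.284 and 20.7 ± 7.23 TPM (SD, n = 3 per group), a 12.2-fold ratio of means. On the scale of log2(value + 0.5), on which all differences below are given, the difference was 3.23.

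The second beta chain, HBB2, showed a wider gap. Its assembled gene was at 1.11, 0.631 and 0.523 TPM in the DMSO limbs and at 24.5, 12.3 and 33.5 TPM in the iMDK limbs. The groups again did not overlap, and the lowest iMDK limb was 11.1 times the highest DMSO limb. The means were 0.756 ± 0.315 and 23.4 ± 10.6 TPM, a 31.0-fold ratio and a log2 difference of 4.17.

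HBA, the alpha chain, had the narrowest gap of the 3. It was at 0.590, 1.03 and 0.961 TPM in the DMSO limbs and at 4.17, 3.34 and 7.86 TPM in the iMDK limbs. The groups did not overlap, with the lowest iMDK limb at 3.23 times the highest DMSO limb. The means were 0.862 ± 0.238 and 5.12 ± 2.41 TPM, a 5.95-fold ratio and a log2 difference of 1.98.

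**Figure D1:**
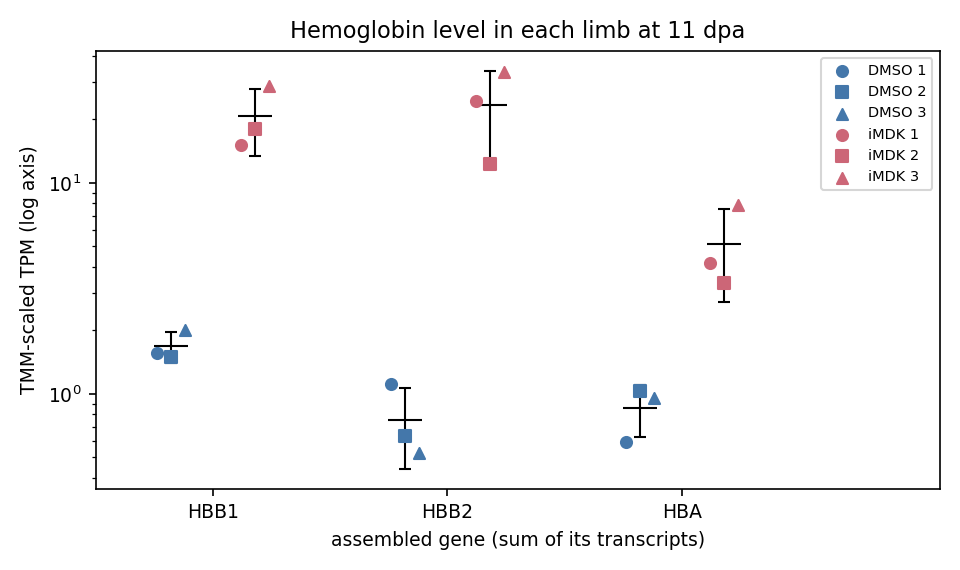
Level of the assembled genes HBB1, HBB2 and HBA in each limb in TMM-scaled TPM on a log axis. Points are limbs (circle, square and triangle for replicates 1, 2 and 3), horizontal bars are group means and error bars are SD (n = 3 per group). The iMDK points of HBB1 run from 15.2 to 28.9 and the DMSO points from 1.5 to 2.02, and for all 3 genes the lowest iMDK limb is above the highest DMSO limb.

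HBB1 and HBA are each represented by 1 transcript, c1020875_g2_i1 and c1092570_g1_i1. HBB2 has 3. The transcript that carries the HBB2 name, c1069424_g1_i1, was listed at 0 in all 6 libraries, and c1069424_g1_i3 was above 0 only in iMDK 1, at 0.150 TPM. Nearly all of the HBB2 level was therefore that of c1069424_g1_i2, which carries no blastx name of its own and was at 24.4, 12.3 and 33.5 TPM in the iMDK limbs. A value listed at 0 can come from the way kallisto divides reads among close copies, and the chains of one family share sequence, so the split between transcripts is less certain than their sum.

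Of the 5 transcripts, 3 reached 1 TPM in at least 3 libraries, the filter for the limma fit over 51718 transcripts. HBB1 met it in all 6 libraries, while HBB2 and HBA met it through the 3 iMDK limbs and 1 DMSO limb each, so a higher level in iMDK limbs was part of their passing. At an adjusted p under 0.05 and a fold above 2, HBB1 and c1069424_g1_i2 were called higher and HBA was not. Over all tested transcripts 0.541% were called, 0.311% higher and 0.230% lower in iMDK. The groups were apart for all 3 transcripts, beside 8.59% of all tested transcripts that lay wholly higher in iMDK limbs and 8.41% that lay wholly lower. On values summed per assembled gene, HBB1 and HBB2 were called and HBA was not. Over 44342 tested genes 0.0541% were called, 0.0316% higher, and 8.38% lay wholly higher in iMDK limbs. Since this contrast was the reason for choosing them, nothing is read from these counts. By size of the log2 difference, HBB2 stood 20th, HBB1 65th and HBA 764th from the top among the tested assembled genes.

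With any 1 of the 6 libraries left out, 0 of the 3 genes were called. Without DMSO 1, DMSO 2 or iMDK 3, 0 of the 3 transcripts were called, without DMSO 3 or iMDK 1 only HBB1, and without iMDK 2 only c1069424_g1_i2. Calls fell over all features too with a smaller number of limbs, from 280 to between 78 and 138 transcripts and from 24 to between 0 and 3 genes. The log2 difference over the same omissions stayed between 2.97 and 3.42 for HBB1, between 3.86 and 4.56 for HBB2 and between 1.65 and 2.21 for HBA.

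Among the 44342 tested assembled genes, the 3 hemoglobin genes stood in the lower part in DMSO limbs. Genes that failed the filter were left out of this ranking. HBB1 lay above 29.6 to 45.0% of the tested assembled genes in the DMSO libraries and above 84.9 to 91.5% in the iMDK libraries. HBB2 moved from 11.9 to 28.5% up to 82.8 to 92.4%, and HBA from 16.4 to 20.3% up to 55.9 to 75.4%. Even in iMDK 3, the limb with the most hemoglobin, the 3 genes summed to 70.2 TPM.

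The summed level of the 3 genes was nearly the same in the DMSO limbs, at 3.27, 3.16 and 3.5 TPM, and spread more widely in the iMDK limbs, at 43.9, 33.7 and 70.2 TPM. Its means were 3.31 ± 0.174 and 49.3 ± 18.8 TPM, a 14.9-fold ratio, and the highest limb was 1.11 times the lowest in DMSO and 2.08 times in iMDK. The steadiness of the DMSO sum was not shared by its parts: HBB2 differed 2.13-fold and HBA 1.75-fold between the highest and lowest DMSO limb.

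The second question was whether the chains varied together from limb to limb within a treatment. In the iMDK group they shared their highest limb. Taken as the deviation from the group mean on the log2 scale, iMDK 3 was at 0.52 for HBB1, 0.61 for HBB2 and 0.65 for HBA. The limb iMDK 2 was below the group mean for all 3, at -0.14, -0.79 and -0.47, and iMDK 1 was below it for HBB1 (-0.38) and HBA (-0.18) but above it for HBB2 (0.17). In the DMSO group the chains did not share an order. HBB1 was highest in DMSO 3 (0.21), HBB2 in DMSO 1 (0.39) and HBA in DMSO 2 (0.19), at levels near 1 TPM where few reads can be expected. With 3 limbs per group and a gap between the groups, no correlation over the libraries was computed. The share of all transcripts with their highest iMDK limb in iMDK 3 was not computed either, so the shared limb is a description only. By closeness to HBB1 within groups, given below, HBA ranked 1593rd and c1069424_g1_i2 16444th among 51717 transcripts.

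The make-up of the summed level of the 3 member genes differed as well. HBB1 contributed 47.3 to 57.6% of the summed level in DMSO limbs and 34.6 to 53.5% in iMDK limbs, so these ranges overlapped. HBB2 contributed 14.9 to 34.1% in DMSO limbs and 36.6 to 55.9% in iMDK limbs, and HBA 18.1 to 32.7% and 9.51 to 11.2%, both without overlap. HBB1 was the most abundant of the 3 in every DMSO limb and in iMDK 2, whereas HBB2 led in iMDK 1 and iMDK 3.

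The ratio of beta to alpha, taken as HBB1 plus HBB2 over HBA, was 4.53, 2.06 and 2.64 in the DMSO limbs and 9.51, 9.10 and 7.93 in the iMDK limbs. The means were 3.08 ± 1.30 and 8.85 ± 0.818 (SD, n = 3 per group). The ratio was thus higher in every iMDK limb and also less spread there. In DMSO limbs its divisor, HBA, was only 0.590 to 1.03 TPM, where few reads can be expected. The ratio covers the member genes only. It leaves out the HBA2 gene, with which the ratio is given again below. Globin transcripts without a name would change it too. Within the beta chains, the ratio of HBB2 to HBB1 was 0.714, 0.422 and 0.259 in the DMSO limbs and 1.61, 0.685 and 1.16 in the iMDK limbs, where iMDK 2 fell below DMSO 1.

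**Figure D2:**
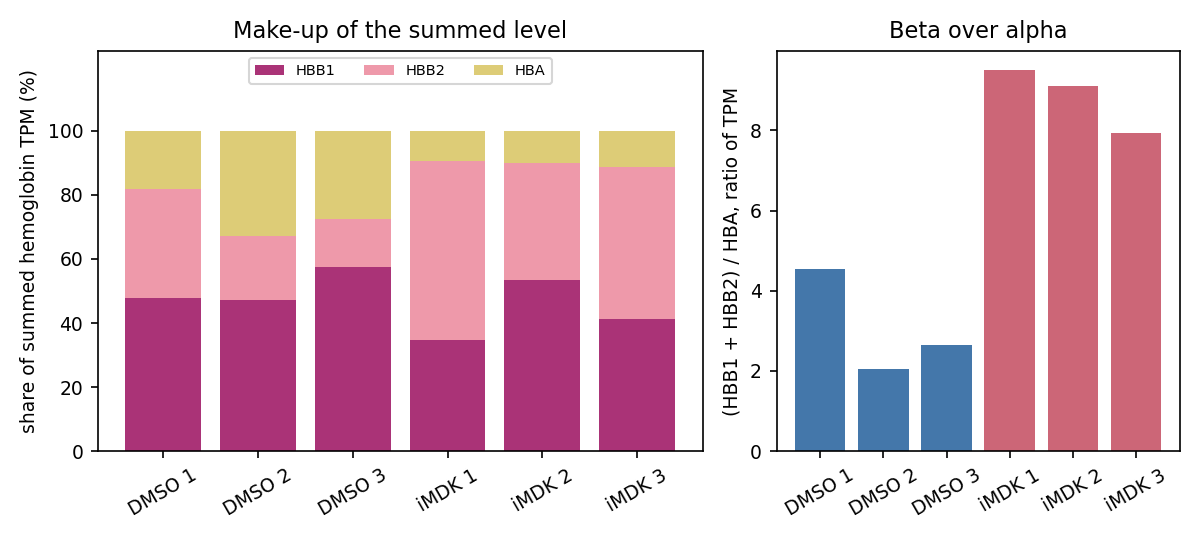
Left, percent of the summed TPM of HBB1, HBB2 and HBA that each gene contributed in each limb; right, ratio of the summed beta chains to HBA in each limb, with DMSO in blue and iMDK in red. HBA made up 18.1 to 32.7% in DMSO limbs and 9.51 to 11.2% in iMDK limbs, and the ratio was 2.06 to 4.53 and 7.93 to 9.51.

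A further alpha chain name, HBA2 (HBA2_TRICR), belongs to a transcript of an assembled gene outside the 3, c1091849_g1, and its sum did not move with them. The gene was at 4.67, 3.74 and 4.98 TPM in the DMSO limbs and at 5.30, 2.72 and 4.55 TPM in the iMDK limbs, with overlapping groups. The log2 difference was -0.12 ± 0.30 (SE; limma adjusted p = 0.91). In DMSO limbs this gene stood above each of the 3 members, and in iMDK limbs below both beta chains.

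Within that gene the transcripts changed places. The transcript c1091849_g1_i5 was at 3.57, 3.23 and 3.51 TPM in the DMSO limbs and listed at 0 in all 3 iMDK limbs (limma adjusted p = 0.0399). The transcript c1091849_g1_i2 was at 1.1, 0.446 and 1.47 TPM in the DMSO limbs and at 5.30, 2.66 and 4.09 TPM in the iMDK limbs, without overlap but not past the test (limma adjusted p = 0.203). The transcript c1091849_g1_i4, the one that carries the HBA2 name, was at most 0.424 TPM in any library. The call of c1091849_g1_i5 did not hold with any 1 library left out, with limma adjusted p-values between 0.110 and 0.163. Counting the whole gene as alpha chain, the ratio of beta to alpha was 0.508, 0.446 and 0.427 in the DMSO limbs and 4.19, 5.01 and 5.02 in the iMDK limbs.

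**Figure D3:**
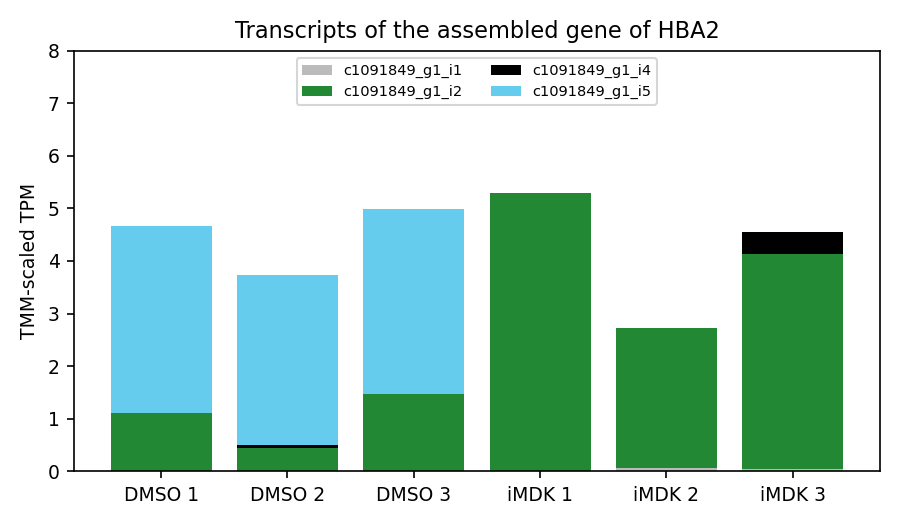
TMM-scaled TPM of the transcripts of the assembled gene c1091849_g1, stacked by limb, where colors stand for transcripts. The sums run from 3.74 to 4.98 in DMSO limbs and from 2.72 to 5.30 in iMDK limbs, while c1091849_g1_i5 is listed at 0 in all 3 iMDK limbs.

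The third question was how other genes of red cells and blood stood in the same limbs. They were taken from 12 lists, chosen with earlier results of these data known and matched by blastx name. Names were at hand for only 943 of the 51718 tested transcripts, those reported as different in another experiment of the study. Red cell genes without such a name could not be listed, so the lists are no survey of them. Of 42 tested transcripts with such a name on these lists limma called 0, where 0.541% of all tested transcripts were called. Of the 42, 4 had an unadjusted p under 0.05, where 5816 of 51718 had. Calls among unnamed transcripts of these genes were not counted. They include c1091849_g1_i5 of the HBA2 gene and c1071002_g3_i4 of the JAK2 gene (limma adjusted p = 0.026). The latter was picked for its likeness to HBB1, so nothing is read from its p. Of 51 tested assembled genes limma called 0, where 0.0541% of all were called, and 5 had an unadjusted p under 0.05, where 4730 of 44342 had. The median log2 difference of the list genes was 0.32, beside -0.01 over all 44342 tested assembled genes, and the largest was 1.46. Each of the 3 hemoglobin genes lay higher, but they were chosen by this difference, so nothing is read from that.

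Heme synthesis was represented by HEM0, the red cell form of the enzyme that starts heme synthesis, HEM1, its form in other tissues, and HEM4, which acts later in the pathway. The assembled gene of HEM0 was at 1.23, 0.621 and 6.86 TPM in the DMSO limbs and at 1.36, 7.0 and 6.86 TPM in the iMDK limbs. DMSO 3 was as high as the upper iMDK limbs, and iMDK 1 was close to DMSO 1 (log2 difference 0.95, limma adjusted p = 0.817). The part of heme synthesis in the hemoglobin difference was not tested. HEM1 and HEM4 were at most 0.0570 and 0.0890 TPM in any library and were not tested.

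Among proteins of the red cell membrane and its skeleton, 5 of 6 assembled genes were tested, with 2 differences above 0, 3 below and a median of -0.01. ERMAP, an adhesion protein of red cells, averaged 2.30 ± 1.45 TPM without iMDK and 2.34 ± 1.35 TPM with it (limma adjusted p = 0.995). ANK1, the ankyrin of red cells, was at most 0.466 TPM in any library and was not tested. EM55, a scaffold protein of the red cell membrane that other cells also make, was at 23.2 ± 0.485 and 18.1 ± 3.5 TPM, with all 3 iMDK limbs below all 3 DMSO limbs (log2 difference -0.37, limma adjusted p = 0.569). STOM, a membrane protein of red cells and many other cells, was at 87.7 ± 26.1 and 115.7 ± 19.6 TPM (limma adjusted p = 0.629). The adducins ADDA and ADDG, which tie actin to spectrin, had log2 differences of -0.17 and 0.31.

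Among genes of iron uptake and reduction, 4 of 5 assembled genes were tested, with 3 differences above 0, 1 below and a median of 0.35. The metalloreductase STEA4 was at 54.3, 27.4 and 52.7 TPM in the DMSO limbs and at 44.5, 106.9 and 44.6 TPM in the iMDK limbs. Only iMDK 2 stood above the DMSO limbs (limma adjusted p = 0.816). The ferric reductase FRRS1 was at 1.27 ± 0.353 and 2.44 ± 1.09 TPM (limma adjusted p = 0.637), and STEA1, of the same family as STEA4, at 21.3 ± 7.09 and 24.3 ± 4.05 TPM (limma adjusted p = 0.835). TFR2, a transferrin receptor, was named for c1091247_g5, at 1.52 ± 1.21 and 1.31 ± 1.03 TPM (limma adjusted p = 0.930), and for c1083464_g1, at 0.428 ± 0.313 and 0.888 ± 0.386 TPM, which was not tested.

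**Figure D4:**
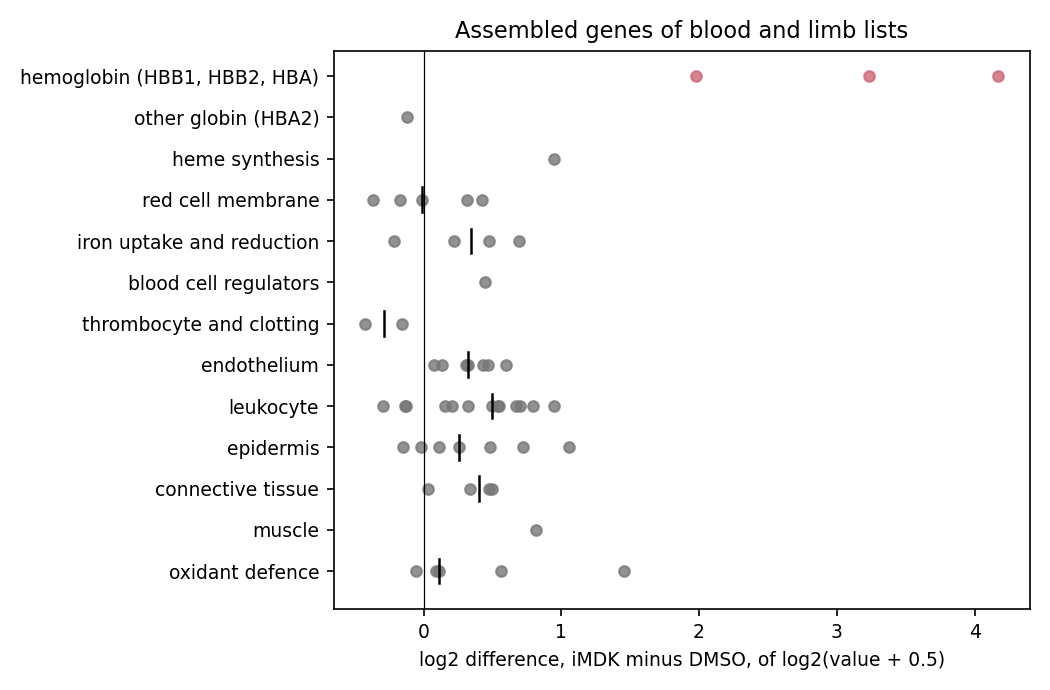
Log2 difference, iMDK minus DMSO, of log2(value + 0.5) for the 3 hemoglobin genes (red) and for the tested assembled genes of each list (grey), with short black lines at the median of a list. The hemoglobin genes, which were chosen by this difference, lie at 1.98, 3.23 and 4.17, and the list genes between -0.42 and 1.46.

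Markers of other cells in or around blood vessels were read in the same limbs. The summed level of the 8 genes on the endothelial list was 132.8 to 148.9 TPM in DMSO limbs and 177.5 to 205.2 TPM in iMDK limbs. The groups did not overlap, and the ratio of means was 1.32. Summed over the named transcripts of the list only, the groups overlapped, at 35.04 to 45.55 TPM and 31.81 to 72.67 TPM. The ratio of means was then 1.18. Of 5 tested named transcripts, 4 had differences above 0 and 1 below. The list includes C1QRF, at 33.1 ± 6.80 and 36.3 ± 6.83 TPM. That blastx name is of C1q-related factor, which is no endothelial marker, and no sum was taken without it. TM100 of this list, which was not tested, had a lower mean in iMDK limbs, at 0.612 ± 0.261 and 0.446 ± 0.240 TPM. All 7 tested endothelial genes had differences above 0. Among all 51 tested list genes, these 7 included, 38 lay above 0 and 13 below. Over all tested transcripts, not assembled genes, 48.9% lay above 0. The median log2 difference over all tested assembled genes was -0.01. Epidermal and connective tissue sums had ratios of means of 1.30 and 1.23, with overlapping groups. Ratios below 1 were those of the thrombocyte and clotting genes (0.748) and the HBA2 gene (0.939). PLVAP, the diaphragm protein of capillary walls, at 17.1 ± 3.63 and 26.3 ± 6.12 TPM, had the smallest p of the 7 (limma adjusted p = 0.455). ROBO4, a receptor of endothelial cells, was near 1 TPM in both groups. The part of the level of the endothelial list in the hemoglobin difference was not tested.

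The 14 genes of the leukocyte list summed to 508 to 2214 TPM in DMSO limbs and 697 to 2563 TPM in iMDK limbs. The groups overlapped, with DMSO 3 and iMDK 1 highest. Most of that sum was 1 gene of macrophages, MPEG1 (c1090171_g3), at 362, 297 and 1909 TPM in the DMSO limbs and at 2207, 449.8 and 1488 TPM in the iMDK limbs. Of 13 tested genes of this list, 10 had differences above 0 and 3 below, with a median of 0.49. Limma called 0 of them, and 2 had an unadjusted p under 0.05. Among the 3 below was SYK, at 104.3 ± 14.3 and 95.1 ± 16.7 TPM (log2 difference -0.14). Its blastx name, SYK_MOUSE, is that of a lysine-tRNA ligase and no leukocyte marker. The list sum, counts and median include it. For the endothelial list, C1QRF included, the median was 0.32, with 0 called and 1 unadjusted p under 0.05. The thrombocyte and clotting genes F13A and GP1BB summed to 59.8 to 88.1 TPM and 51.0 to 63.4 TPM, also overlapping. JAK2, a kinase through which the erythropoietin receptor signals, was at 7.32, 4.69 and 6.89 TPM in the DMSO limbs and at 8.24, 8.02 and 9.69 TPM in the iMDK limbs as an assembled gene, without overlap (log2 difference 0.45, limma adjusted p = 0.583). Of its 2 named transcripts, c1071002_g3_i1 lay the other way, at 2.53, 1.32 and 2.49 TPM in the DMSO limbs and at 0.219, 0 and 1.08 TPM in the iMDK limbs (limma adjusted p = 0.356). The other, c1071002_g3_i5, overlapped between the groups, at 3.67, 2.54 and 3.48 TPM and at 4.10, 3.16 and 0.0420 TPM (limma adjusted p = 0.813). The unnamed transcript c1071002_g3_i4 of this gene, higher in iMDK limbs, is given with the transcripts closest to HBB1. LYL1, a transcription factor of blood cells, was at most 0.729 TPM in any library. The part of these cell types in the hemoglobin difference was not tested.

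The transcripts whose profile was closest to that of HBB1 were sought among 51717 others, by the root mean square difference over the 6 libraries after each was centred on its own mean. The closest without a name, at a distance of 0.154, was c1071002_g3_i4, a further transcript of the assembled gene of JAK2, listed at 0, 0 and 0.002 TPM in DMSO and at 3.92, 4.14 and 6.06 TPM in iMDK. It was followed by c1062231_g1_i2 and c1511431_g1_i1, both listed at 0 in all DMSO limbs. HBB2, through c1069424_g1_i2, ranked 358th at a distance of 0.644 and HBA 421st at 0.666, where the median over all transcripts was 1.75. Among named transcripts MOT2, a transporter of lactate, was closest (0.596), followed by TGM1, a transglutaminase of cornified epidermis (0.652), and RPOM, the RNA polymerase of mitochondria (0.660). They were followed, after HBA, by DCNL3 (0.766), which promotes neddylation, and P53 (0.774), the tumor suppressor. These distances are of single transcripts. As assembled genes, MOT2 (4.09 and 3.5 TPM), RPOM (10.8 and 9.24 TPM) and DCNL3 (9.69 and 9.64 TPM) had no higher mean in iMDK than in DMSO limbs. The means of TGM1 (11.4 and 63.3 TPM) and P53 (111.8 and 133.1 TPM) were higher.

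With each transcript centred within its group, so that the gap between treatments no longer counted, ranks changed unequally. This distance cannot exceed the first. For transcripts picked for a small first distance it was therefore capped, which did not give all of them a near rank. Their ranks are no separate sign of shared variation. The 3 unnamed transcripts ranked 167th, 117th and 254th and MOT2 ranked 780th. HBA ranked 1593rd and c1069424_g1_i2 ranked 16444th, while TGM1, RPOM, DCNL3 and P53 ranked 27518th, 17554th, 2445th and 19944th.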

How the data were processed

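Poly(A) RNA of 3 DMSO and 3 iMDK limbs was sequenced as Nextera XT libraries. Reads were trimmed (Trimmomatic) and assigned to Trinity transcripts (kallisto) by the authors, who tested with DESeq2; no version is given in the sources used here. The deposited signal holds TMM-scaled TPM values for each transcript. These are not counts, and a count test was not run.

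Members and lists were chosen with earlier results of these data known. Blastx names are those that the study pairs with 1694 transcripts of this assembly. They come from tables of differentially expressed transcripts of another experiment. Of the 1694, 943 were tested. For RefSeq, 0 hemoglobin identifiers matched. Values were summed per assembled gene. Transcripts or genes with at least 1 in at least 3 of 6 libraries entered limma 3.58.1, fitted to log2(value + 0.5) under moderated variances with a trend (2-sided, Benjamini-Hochberg), in R 4.3.3 with the data.table package (1.17.8), and the procedure was tested on simulated data. A call needed an adjusted p under 0.05 and a fold above 2. Plots used matplotlib 3.10.9, pandas 2.3.3 and Python 3.11.15. The p-values rest on the limb-to-limb spread of a feature, moderated towards the trend over all tested features.

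The rule for named genes took all member transcripts, those of the HBA2 gene, tested members of the heme, red cell membrane and iron lists, up to 2 per other list with the smallest p, and the 5 named and 3 unnamed transcripts closest to HBB1. Other genes with values were added after these were seen. Alternatives were pseudocounts of 0.1 and 1, other filters and scalings, no trend, a replicate block and leaving out each library.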

Additional observations from a re-analysis of the deposited data

How the results depend on the processing

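The hemoglobin log2 differences kept their direction and moved by less than the spread between replicates under every alternative run. The members were chosen by this contrast, so this steadiness describes them and is no evidence of a difference. The 2 called hemoglobin transcripts, HBA not among them, stayed called under each full-sample setting except the replicate block (0). The hemoglobin genes went from 2 called to 0 with a pseudocount of 0.1, with the TMM scaling undone and with the block. Over all transcripts, 280 were called, against 427 with no filter, 1303 without the trend, 30 with the replicate block and 78 to 138 with 1 library left out. Over assembled genes, 24 were called, against 9 with a pseudocount of 0.1, 438 with no filter, 14 with the TMM scaling undone, 820 without the trend, 0 with the replicate block and 0 to 3 with 1 library left out. On the lists 1 transcript, of the keratin K1C19, was called lower with no filter. The call of c1091849_g1_i5 was lost with a pseudocount of 0.1 (limma adjusted p = 0.0667), a mean of at least 1 as filter (limma adjusted p = 0.0682) and the replicate block (limma adjusted p = 0.240). With 1 library left out, log2 differences ran from -0.29 to 0.13 for the HBA2 gene, from -0.28 to 0.69 for the ERMAP transcript and from -0.030 to 0.41 for the STEA1 transcript, all with a change of sign. The causes were not tested.

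Whether replicate numbers pair the limbs was not settled. Deviations of same-numbered limbs correlated across transcripts at 0.062, 0.039 and 0.010, and those of other pairs at -0.084 to 0.051. Not every limb correlated best with its own number. Deviations centred within a group of 3 limbs are bound to balance around 0, so these values cannot exclude a pairing. Read depth is unknown, so levels near 1 TPM, as in the DMSO limbs, carry an unknown counting error.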

Other observations

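Besides PLVAP, 4 assembled genes on the blood and limb lists had an unadjusted p under 0.05. TRXR1, thioredoxin reductase of the oxidant defence list, was at 4.56, 8.26 and 17.3 TPM in the DMSO limbs and at 27.7, 20.5 and 26.9 TPM in the iMDK limbs, without overlap (log2 difference 1.46, limma adjusted p = 0.291 as an assembled gene). The keratin K2C8 was at 284 ± 67.4 and 468 ± 89.7 TPM (limma adjusted p = 0.337). The leukocyte adaptor proteins FYB and SASH3 were at 2.79 ± 0.952 and 5.15 ± 1.35 TPM (limma adjusted p = 0.440) and at 4.42 ± 0.921 and 7.41 ± 2.0 TPM (limma adjusted p = 0.468). The transcript that carries the SASH3 name, c1079176_g1_i1, was listed at 0 in every library. None of the 4 genes passed.

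The Trinity components of the 3 hemoglobin genes hold 15 other assembled genes, 12 of them with a value above 0 somewhere and 3 of them tested. One of these without a name, c1069424_g10, was at 3.01, 0.522 and 2.63 TPM in the DMSO limbs and at 5.86, 6.11 and 4.88 TPM in the iMDK limbs, without overlap (limma adjusted p = 0.363). It was chosen after its values were seen.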
